A study of Mus musculus with 8 samples.

Results

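The response of WT macrophages to LPS and nigericin was described across all genes, from 4 of the 8 RNA libraries of the series. They were chosen by their labels alone, 2 libraries of WT cells that received PBS and 2 of WT cells that were stimulated. The cells were bone marrow-derived macrophages (BMDM), grown in culture from marrow of Mettl3 fl/fl mice, in which both alleles of Mettl3 are flanked by loxP sites and no Cre recombinase is present. Mettl3 encodes the enzyme that methylates adenosines in mRNA to N6-methyladenosine. Stimulated cells received LPS at 50 ng/ml overnight. They then received nigericin at 10 µM for 3 h by their labels. The series' design text has 1 h or 3 h. Neither agent was given alone, so the effects of LPS and of nigericin cannot be told apart. The other 4 libraries came from Lyz2-Cre Mettl3 fl/fl mice (KO), in which Cre is made under the myeloid Lyz2 promoter, with the same 2 treatments. They entered the estimate of the spread and the test of whether the WT response differed from the KO response. It is not stated whether libraries of one group are from separate cultures or mice, so each p-value reflects variation among these libraries only, perhaps technical. The labels give neither the age nor the sex of the mice.

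LPS is a component of the outer membrane of Gram-negative bacteria. It is sensed by TLR4 with its co-receptors CD14 and MD-2. TLR4 signals through the adaptor MyD88 to NF-kB and MAP kinases, and through the adaptor TRIF to IRF3 and type I interferon. Nigericin is an ionophore that exchanges potassium for protons, and the loss of potassium from the cell activates the NLRP3 inflammasome, which cleaves pro-IL-1β and gasdermin D and can end in pyroptosis. Macrophages are phagocytes with large lysosomes, and without stimulation they express genes for uptake, lipid handling and clearance of dead cells.

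Levels are given as CPM, meaning counts per library of equal size once TMM composition factors are applied. Changes are log2 fold changes of stimulated over PBS, printed with their standard error (SE) and with 2 libraries per group. A gene rose or fell where edgeR's quasi-likelihood test gave an adjusted p (Benjamini-Hochberg over all tested genes) under 0.05. The 4 WT libraries held between 58917273 and 65487739 counts, of which 2.58 to 2.99% came from the mitochondrial genome. Mettl3 (ENSMUSG00000022160, chromosome 14, 52294841 to 52305128, minus strand, GRCm38) stood at 13.6 and 13.3 CPM in WT with PBS and 28.2 and 23.4 after stimulation, against 5.63 and 6.33 and 9.08 and 7.87 in KO, so every WT library was above every KO library. All 14 macrophage markers passed the filter on low counts, with a summed level of 54350.3 to 57779 CPM with PBS and 53306 to 56212 after stimulation. Among them were Lyz2 (32744 and 35400.2 CPM with PBS, 32222 and 34422 after stimulation), Csf1r (3936 and 3861 and 3566 and 3505) and Adgre1, which encodes F4/80 (1833 and 1840.0 and 5839.6 and 5943). Of the marker lists of other cells, that of osteoclasts, which arise from the same precursors as macrophages, had the highest sum, 1295 to 1359 CPM with PBS and 677 to 731 after stimulation. Of its 10 tested genes 3 rose and 3 fell (2 and 4 with library size alone). Most of the sum with PBS was Atp6v0d2 (989 and 1039 to 40.3 and 44.3 CPM, -4.58 ± 0.09), while Acp5 rose (106 and 93.8 to 476 and 535 CPM, 2.34 ± 0.10) and Calcr had 0 counts in both PBS libraries. T and NK cell genes summed to 15.1 to 16.5 CPM with PBS and 5.32 to 6.75 after stimulation, mostly Cd4, while Cd3e and Cd3d had 0 counts in all 4 libraries. B and plasma cell genes summed to 90.5 to 94.5 CPM with PBS and 29.6 to 32.1 after stimulation, mostly Ighm and Cd22, with Ms4a1 and Pax5 at 0 counts in all 4 libraries. Of the 7 tested genes of that list 2 rose, Cd79b and Igkc, and 3 fell. Library size alone gave 1 and 3, and a fit of only the 4 WT libraries gave 0 and 2. Neutrophil genes summed to 215 to 238 CPM with PBS and 277 to 286 after stimulation, mostly Csf3r, with Ly6g at 0 counts in all 4 libraries. Fibroblast genes summed to 348 to 391 CPM with PBS and 230.4 to 231 after stimulation, with 1 and 11 of 16 risen and fallen against 20.6 and 20% of all tested genes, and endothelial genes to 52.8 to 55.6 CPM with PBS and 27.8 to 28.2 after stimulation. The highest sum in a library was 11.1 CPM for dendritic cell genes, 2.26 CPM for mast cell and basophil genes and 29.4 CPM for erythroid and megakaryocyte genes. The part of such cells in the results below was not tested. In bulk RNA, fewer cells of a type and less of an RNA per cell cannot be told apart. The Y-linked genes Ddx3y, Eif2s3y, Kdm5d and Uty were present in all 4 libraries, at 17.4 to 81.2 CPM.

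Stimulation changed a large part of the transcriptome. Of 17470 tested genes 3592 rose and 3490 fell, so that 40.5% of the genes were called, 20.6% as higher and 20% as lower. These shares are the background for the counts of gene groups below. The 2 groups of libraries did not overlap for 71.2% of all tested genes and for 7081 of the 7082 called genes, so separation alone says little here. The middle change was moderate, with a median log2 fold change of 0.91 among risen and -1.03 among fallen genes. With genes at 0 in a group set to the least fold their floor of 3 counts allows, 1649 genes rose and 1780 fell at least 2-fold, 335 and 164 at least 16-fold, and 99 and 21 at least 64-fold. Genes with 0 counts in both libraries numbered 171 among the risen (with PBS) and 191 among the fallen (after stimulation). Among protein-coding genes 3095 of 13302 rose and 3150 fell, and among processed pseudogenes, whose counts can be shared with their parent genes, 189 of 1701 rose and 42 fell. With library size alone, without a composition factor, 2713 rose and 4720 fell and the median of all genes moved from -0.01 to -0.20, so directions of small changes are relative to the scaling. Genes called in all 8 fits that left out 1 library numbered 2384 and 2193.

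**Figure D1:**
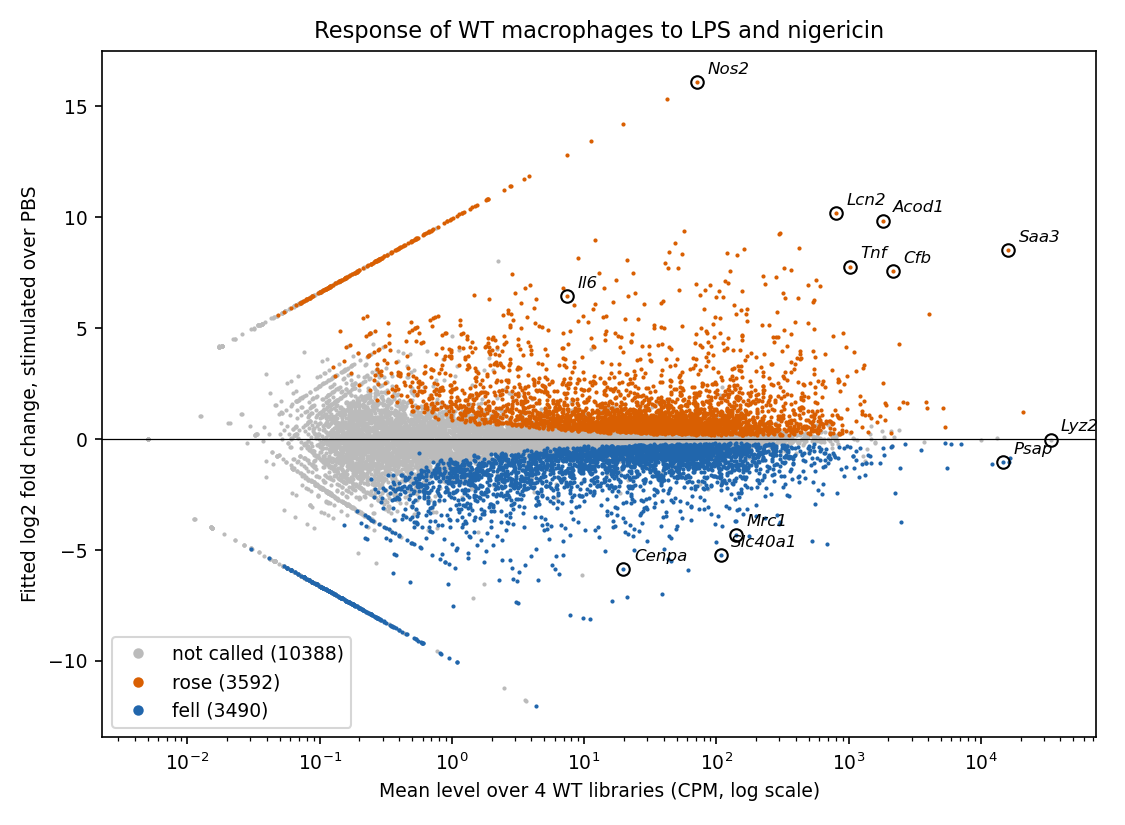
Fitted log2 fold change of stimulated over PBS WT macrophages (y axis) against the mean level of each of the 17470 tested genes over the 4 WT libraries (x axis, CPM, log scale). Orange points are the 3592 genes that rose, blue points the 3490 that fell, grey points those not called, and black circles mark 12 genes named in the text. Saa3 stands at the upper right as a gene both abundant and strongly raised. Genes with 0 counts in both libraries of a group, such as Nos2, form the outer diagonal lines, where the fitted value depends on the prior count and is no bound.

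The composition of the mRNA pool turned over. Genes that rose held 21.8 and 22% of all counts in the PBS libraries and 47.6 and 49.1% in the stimulated ones, while genes that fell went from 41.6 and 41.3% to 19.9 and 19%. These shares follow from the calls and are a description. Per kilobase of exon, Lyz2 (lysozyme) had 24881 and 26899.8 CPM per kb with PBS and 24485 and 26157 after stimulation, and Ftl1, the ferritin light chain, 7394 and 7691 and 6661 and 8200.2. Both were among the 10 genes with the most counts per kb in both states, as were mt-Co1 and the cathepsins Ctsd and Ctss. Genes of the lysosome and of lipid transport left that group: Psap, the precursor of sphingolipid activator proteins, went from 7049 and 7479 to 3437 and 3586 CPM per kb, Ctsb from 3546 and 3671 to 1706 and 1822 and the lipoprotein Apoe from 3628 and 3728 to 1876 and 1102. In their place came Saa3, an acute-phase protein, which went from 31.8 and 35.2 to 11895 and 12740.4 CPM per kb, and the chemokine Ccl5, from 156 and 182 to 7849 and 8758. The MHC class I light chain B2m went from 3139.9 and 3406 to 8124 and 9216, and the ferritin heavy chain Fth1 from 3460.1 and 3746 to 5265 and 11419. The stimulated libraries differed from each other in Fth1 (18265 and 39612 CPM, against 12003 and 12993 with PBS). Its rise was 1.21 ± 0.39 (adjusted p = 0.0435). Both ferritin genes have many pseudogene copies with which counts can be shared. Calls lost in fits without 1 library were these: Fth1 without WT PBS library 1, WT PBS library 2, stimulated WT library 2, stimulated KO library 1 or stimulated KO library 2 (largest adjusted p 0.247).

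**Figure D2:**
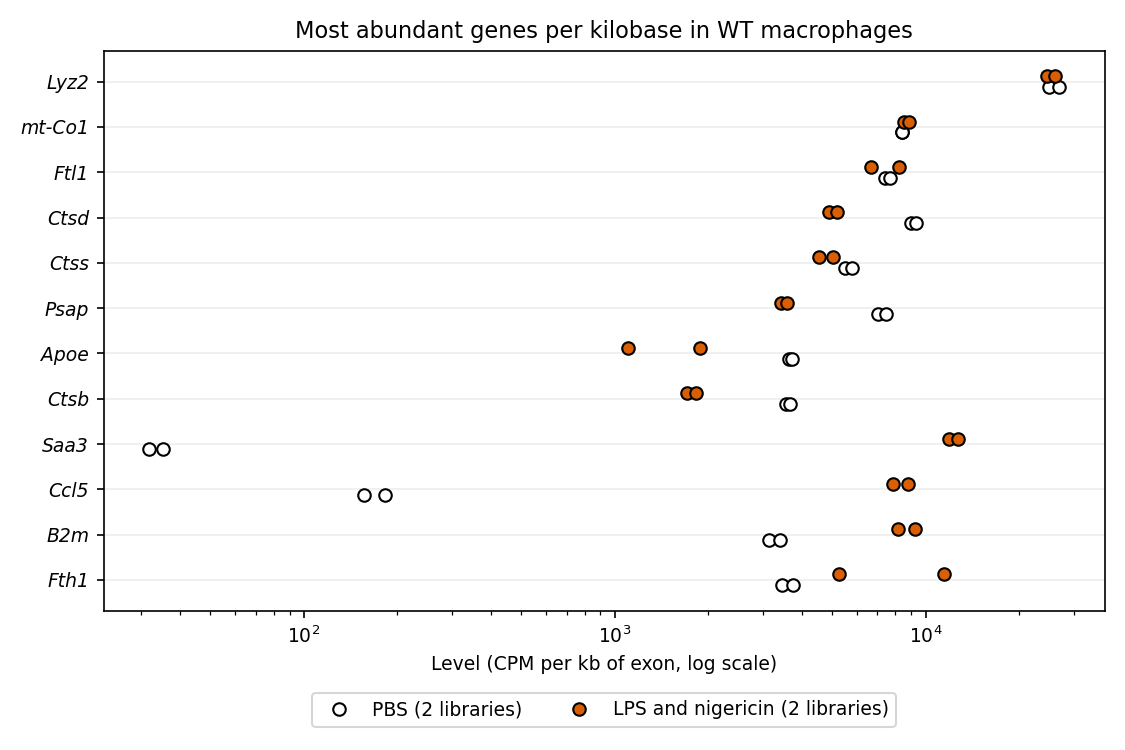
Level per kilobase of exon (x axis, CPM per kb, log scale) of 12 of the most abundant genes in each of the 4 WT libraries, with open points for PBS and filled points for stimulated libraries, 2 of each per gene. Saa3 and Ccl5 move from far below the rest to their level, while for Lyz2 and Ftl1 the points of both treatments overlap.

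Among the 12 largest rises were genes of secreted and surface proteins of inflammation. Nos2, which makes nitric oxide in activated macrophages, had 0 counts in both PBS libraries and 148 and 138 CPM after stimulation, at least 6289-fold higher. Il12b and Il12a, the subunits of interleukin-12, also had 0 counts with PBS and reached 41.4 and 36.9 and 18.3 and 26.6 CPM, at least 1715-fold and 990.2-fold higher. The same held for U90926 at 76.4 and 94.4 CPM (at least 3759-fold) and for the activating receptor Trem3 at 13.2 and 16.5 CPM (at least 653-fold). Of the genes with counts in both states, Lcn2, an iron-siderophore-binding protein, went from 1.75 and 1.05 to 1513 and 1709 CPM (10.17 ± 0.28) and Acod1, which makes itaconate, from 3.5 and 4.33 to 3616 and 3602 CPM (9.85 ± 0.27). Rasgrp1, an activator of RAS, went from 0.123 and 0.211 to 121 and 105 CPM (9.38 ± 0.68), the surface receptor Tarm1 from 0.338 and 0.0902 to 90.5 and 105 CPM (8.83 ± 0.44) and the membrane protein Ms4a4c from 1.98 and 2.32 to 784 and 912 CPM (8.62 ± 0.13). The formyl peptide receptors Fpr1 and Fpr2, which guide phagocytes to bacterial peptides, rose from 1.17 and 0.782 to 582 and 623 CPM (9.27 ± 0.21) and from 0.737 and 1.2 to 559 and 627 CPM (9.25 ± 0.24). The 12 largest falls included receptors, a transporter, enzymes and a centromere protein. The orphan receptor Gprc5c went from 21.5 and 23.1 to 0.164 and 0 CPM (-8.09 ± 0.62), the organic anion transporter Slco2b1 from 18.4 and 20.9 to 0.145 and 0 CPM (-8.07 ± 0.78) and Hpgd, which inactivates prostaglandins, from 30.9 and 34 to 0.346 and 0.0688 CPM (-7.30 ± 0.51). The costimulatory receptor Cd28 went from 38.1 and 46.3 to 0.473 and 0.138 CPM (-7.12 ± 0.47), the adhesion regulator Cytip from 86.7 and 68 to 0.546 and 0.654 CPM (-7.00 ± 0.51), Bex1 from 11.7 and 13.9 to 0.182 and 0.189 CPM (-6.09 ± 0.32) and Mamdc2 from 96.3 and 144 to 1.87 and 2.15 CPM (-5.90 ± 0.25). Cenpa, the centromere histone, Nat8l, which makes N-acetylaspartate, Ier5l, the sialyltransferase St6gal1 and Zfyve28 fell by log2 fold changes of -5.85 ± 0.22, -5.84 ± 0.26, -5.67 ± 0.51, -5.51 ± 0.16 and -5.40 ± 0.15. Adjusted p-values of these changes were at most 0.000297, for Trem3.

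Cytokine ligands rose in most families. Of the IL-1 family 6 of 7 rose and 0 fell (median log2 fold change 4.45, or 4.23 with genes at 0 in a group set to their bound). The agonists Il1a (2.55 and 3.55 to 649 and 637 CPM, 7.72 ± 0.26) and Il1b (15.7 and 13.5 to 1076 and 1030.4 CPM, 6.17 ± 0.14) rose together with their antagonist Il1rn (5.46 and 9.73 to 141 and 145 CPM, 4.23 ± 0.38) and with Il18bp, the decoy that binds IL-18 (38.7 and 42.3 to 109.7 and 216 CPM, 2.01 ± 0.30). Il18 itself stood at 3.62 and 4.35 CPM with PBS and 5.66 and 6.37 after stimulation (0.59 ± 0.18). Of the TNF ligands 5 of 13 rose and 4 fell (median log2 fold change 1.27). Tnf went from 10.6 and 8.06 to 2099 and 1975 CPM (7.77 ± 0.19), the 4-1BB ligand Tnfsf9 from 1.15 and 0.933 to 86.4 and 69.3 CPM (6.22 ± 0.20) and the TL1A gene Tnfsf15 from 0.89 and 0.963 to 46.4 and 33.8 CPM (5.43 ± 0.22). Tnfsf12 (TWEAK) and Tnfsf13 (APRIL) fell from 72.6 and 73 to 30.3 and 37.5 CPM (-1.10 ± 0.13) and from 12.3 and 11.7 to 4.0 and 3.46 CPM (-1.68 ± 0.18). Of the interleukins, interferons and colony-stimulating factors 10 of 18 rose and 3 fell (median log2 fold change 1.94, or 1.66 with genes at 0 in a group set to their bound). Il6 reached 16.9 and 12.4 CPM from 0.107 and 0.226 (6.44 ± 0.37), and the IL-27 and IL-35 subunit Ebi3 rose from 26.9 and 28.5 to 114 and 127 CPM (2.12 ± 0.09). Osm, oncostatin M, went the other way, from 77.1 and 111 to 22.7 and 18.8 CPM (-2.18 ± 0.30). Il15 fell by a small step, from 20 and 20.3 to 16.2 and 15.4 CPM (-0.35 ± 0.10), and Csf1 had 18.6 and 14 CPM with PBS and 11.5 and 14.1 CPM after stimulation (-0.35 ± 0.17, adjusted p = 0.149). Among the changes named, the highest adjusted p was 0.034, for Il18. When 1 library was left out, these calls were lost: Il18 without WT PBS library 1, WT PBS library 2, stimulated WT library 1, stimulated WT library 2, stimulated KO library 1 or stimulated KO library 2 (largest adjusted p 0.159) and Il15 without any of the 4 WT libraries (largest adjusted p 0.111). Counts of these lists moved by over 1.5 times in a fit without 1 library: TNF superfamily ligands had 2 fallen without KO PBS library 1 or KO PBS library 2 or stimulated WT library 1 or stimulated WT library 2 or WT PBS library 1 or WT PBS library 2.

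Most chemokine ligands rose. Of the CC chemokines 9 of 16 rose and 3 fell (median log2 fold change 1.36). Ccl5, which attracts T cells and monocytes, went from 149.7 and 175 to 7535 and 8408 CPM (5.62 ± 0.11), Ccl3 from 29.4 and 42.2 to 656 and 653 CPM (4.19 ± 0.28) and Ccl4 from 8.81 and 14.3 to 302 and 299 CPM (4.70 ± 0.29), and the monocyte attractant Ccl2 from 2.1 and 2.44 to 70.5 and 78.6 CPM (5.04 ± 0.14). Ccl6, abundant in resting cells, fell from 915 and 1066 to 121 and 138 CPM (-2.94 ± 0.12). Of the CXC chemokines 9 of 13 rose and 2 fell (median log2 fold change 4.65, or 2.59 with genes at 0 in a group set to their bound). The CXCR3 ligands Cxcl9 and Cxcl10 rose from 0.292 and 0.677 to 101 and 105 CPM (7.72 ± 0.39) and from 0.691 and 1.01 to 320.3 and 327 CPM (8.57 ± 0.19), and the neutrophil attractants Cxcl1 and Cxcl2 from 2.89 and 6.45 to 148 and 147 CPM (4.98 ± 0.46) and from 13.6 and 25.9 to 777 and 768 CPM (5.29 ± 0.38). Receptors for attractants changed in both directions: 7 of 27 rose and 9 fell (median log2 fold change 0.51). Beside Fpr1 and Fpr2, the chemerin-binding receptors Ccrl2 (128 and 173 to 879 and 854 CPM, 2.53 ± 0.18) and Cmklr1 (78 and 74.6 to 159.7 and 139 CPM, 0.97 ± 0.09) rose. Cxcr4, the receptor of CXCL12, fell from 609 and 523 to 40.9 and 44.7 CPM (-3.72 ± 0.18), the sphingosine 1-phosphate receptor S1pr1 from 117 and 95.3 to 22.4 and 24.3 CPM (-2.19 ± 0.21), and the complement receptors C5ar1 and C3ar1 from 32.3 and 34.4 to 20.3 and 22.4 CPM (-0.64 ± 0.12) and from 1352 and 1353 to 796 and 815 CPM (-0.75 ± 0.05). No named change had an adjusted p above 0.0044, for C5ar1. Leaving out 1 library moved these counts by over 1.5 times: CC chemokines had 1 fallen without stimulated WT library 1 or stimulated WT library 2 or WT PBS library 1 or WT PBS library 2.

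Receptors for cytokines were as often lower as higher. Of the cytokine and growth factor receptors 10 of 38 rose and 11 fell (median log2 fold change -0.02, 7 and 13 with library size alone). Il2rg, the chain shared by several interleukin receptors, rose from 61.4 and 68 to 419 and 459 CPM (2.76 ± 0.08), and Il15ra, which presents IL-15, from 3.96 and 3.38 to 27 and 30 CPM (2.95 ± 0.13). Il21r rose from 14.5 and 11.4 to 36.9 and 38.5 CPM (1.54 ± 0.16) and the hepatocyte growth factor receptor Met from 2.3 and 2.24 to 28.7 and 21.7 CPM (3.47 ± 0.17). The IL-7 receptor chain Il7r fell from 443 and 417 to 36 and 37.4 CPM (-3.55 ± 0.08), the shared IL-6 family chain Il6st from 156 and 104 to 41.1 and 37.7 CPM (-1.72 ± 0.27), and both chains of the TGF-β receptor, Tgfbr1 and Tgfbr2, from 254 and 254 to 120.1 and 107 CPM (-1.16 ± 0.10) and from 209.7 and 216 to 103 and 100.1 CPM (-1.07 ± 0.06). Csf1r, the receptor for the growth factor on which macrophages depend, had 3936 and 3861 CPM with PBS and 3566 and 3505 CPM after stimulation (-0.14 ± 0.06, adjusted p = 0.0837). Of the TNF receptors 7 of 19 rose and 6 fell (median log2 fold change -0.01, 6 and 6 with library size alone). Cd40 rose from 2.16 and 1.79 to 34.3 and 36.2 CPM (4.15 ± 0.13), Fas from 3.27 and 4.39 to 18.5 and 17 CPM (2.21 ± 0.16) and Tnfrsf1b, the TNFR2 gene, from 984 and 955 to 2896 and 2799 CPM (1.55 ± 0.05). Tnfrsf1a, the TNFR1 gene, had 160.0 and 170.0 CPM with PBS and 164 and 180.2 CPM after stimulation (0.06 ± 0.07, adjusted p = 0.563). At the upper end, the adjusted p was 0.00238, for Il6st. These counts moved by over 1.5 times when a library was left out: TNF superfamily receptors had 4 risen without WT PBS library 2.

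Sensors of microbes changed unevenly. Of the Toll-like receptors and co-receptors 6 of 17 rose and 3 fell (median log2 fold change 0.41). Tlr1 and Tlr2, which pair to sense lipopeptides, rose from 28.9 and 36.7 to 276 and 274 CPM (3.07 ± 0.19) and from 134 and 111 to 356 and 349.8 CPM (1.53 ± 0.13), and Tlr6 from 21.7 and 21.4 to 35.2 and 35.6 CPM (0.72 ± 0.09). The endosomal RNA sensors Tlr8 and Tlr13 fell, Tlr8 from 242 and 251 to 133 and 113 CPM (adjusted p = 0.000298) and Tlr13 from 475 and 507 to 309.7 and 288 CPM (-0.72 ± 0.07). Cd14, the LPS co-receptor, had 1121 and 1081 CPM with PBS and 1074 and 1118 CPM after stimulation (-0.01 ± 0.09, adjusted p = 0.964) and the RNA sensor Tlr7 had 63.5 and 284 CPM with PBS and 238 and 225 CPM after stimulation (0.41 ± 0.62, adjusted p = 0.641). Of the cytosolic sensors 17 of 23 rose and 2 fell (median log2 fold change 1.68), against a background of 20.6% higher. The DNA-binding Ifi205 and Ifi209 rose from 4.67 and 6.42 to 267 and 286 CPM (5.64 ± 0.25) and from 19.2 and 23.6 to 511 and 519.9 CPM (4.59 ± 0.20), Zbp1, which binds Z-form nucleic acids, from 10.5 and 14.2 to 422 and 442 CPM (5.13 ± 0.19), and Mefv, the pyrin sensor, from 7.75 and 8.03 to 172 and 160.2 CPM (4.39 ± 0.12). Of the adaptors and kinases 12 of 31 rose and 3 fell (median log2 fold change 0.29, 11 and 7 with library size alone). The adaptor Traf1 rose from 7.55 and 8.95 to 152 and 142 CPM (4.16 ± 0.15), Irak3, a brake on the pathway, from 22.5 and 28.1 to 248 and 357 CPM (3.58 ± 0.28), the protease Malt1 from 36.1 and 20.5 to 173 and 138 CPM (2.46 ± 0.38) and the kinase Ikbke from 84.9 and 109 to 360.5 and 351 CPM (1.87 ± 0.17), and Ripk1 fell from 149 and 145 to 98.2 and 90.9 CPM (-0.64 ± 0.07). Tbk1, the kinase of IRF3, had 113 and 111 CPM with PBS and 139.7 and 134 CPM after stimulation (0.29 ± 0.13, adjusted p = 0.121). The largest adjusted p among the changed genes was 0.00216, for Malt1. With 1 library left out, counts moved by over 1.5 times for these lists: Cytosolic innate sensors and their adaptors had 1 fallen without stimulated WT library 2 or WT PBS library 1 or WT PBS library 2. Signalling adaptors and kinases of innate receptors had 1 fallen without stimulated WT library 2 or WT PBS library 1.

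Most inhibitors of NF-kB rose, while of its subunits 2 did. NF-kB is held in the cytosol by IκB proteins, and ubiquitin editors such as A20 end its activation. Of the 5 subunits, Nfkb2 (64 and 53.7 to 227 and 224 CPM, 1.94 ± 0.12) and Relb (31.8 and 26.7 to 84.8 and 87 CPM, 1.55 ± 0.13), which form the slower noncanonical dimer, rose. Rela had 97.1 and 101 CPM with PBS and 112 and 113 CPM after stimulation (0.18 ± 0.06, adjusted p = 0.065), Nfkb1 114 and 109 CPM with PBS and 149.5 and 123 CPM after stimulation (0.29 ± 0.10, adjusted p = 0.0604) and Rel 64.9 and 60.2 CPM with PBS and 77.3 and 51.4 CPM after stimulation (0.04 ± 0.18, adjusted p = 0.882). Of the inhibitors and ubiquitin editors 15 of 23 rose and 3 fell (median log2 fold change 1.39). Tnfaip3, which encodes A20, went from 58.4 and 68.4 to 1158 and 853 CPM (3.99 ± 0.40), Nfkbia, which encodes IκBα, from 60.2 and 53.4 to 798 and 796 CPM (3.81 ± 0.09), the nuclear regulator Nfkbiz from 22.6 and 22.3 to 606 and 488 CPM (4.61 ± 0.17) and Tnip3 from 16.1 and 14.3 to 89.2 and 96.6 CPM (2.61 ± 0.16). For each of these 4 genes both stimulated libraries were above both PBS libraries. That says little, since the groups did not overlap for 7081 of the 7082 called genes and for 71.2% of all tested genes. Otud7b fell from 36 and 32.2 to 17.5 and 15.1 CPM (-1.06 ± 0.12). In RefSeq's promoter windows (GRCm38.p6, 250 bases before to 50 after the start of a gene), the kB-like motif (GGG, any 2 bases, TTTCC), searched on both strands, stood in 17.9% of the 28 windows of the tested members of this list, against 1.63% of all 32851 windows in the table and 1.76% of those of tested genes. Shown, for the place of the match in capitals, are the windows of the 2 members with the largest rise among those with a match and at least 10 CPM. They were chosen after their values were seen, and each begins 250 bases before the start. Of the 17470 tested genes 11100 had a window in the table. The kB-like motif also stood in 2.55% of the windows of risen genes, 1.32% of those of fallen genes and 7.32% of the 41 of lysosomal genes. A match describes letters and is no measure of binding.
Tnfaip3 (chr10:19015361-19015660, minus strand): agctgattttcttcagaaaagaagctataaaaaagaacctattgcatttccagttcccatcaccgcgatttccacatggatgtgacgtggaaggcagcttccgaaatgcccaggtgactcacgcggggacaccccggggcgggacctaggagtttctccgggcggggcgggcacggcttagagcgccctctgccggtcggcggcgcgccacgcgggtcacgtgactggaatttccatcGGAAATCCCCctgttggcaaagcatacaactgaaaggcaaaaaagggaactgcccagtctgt
Nfkbia (chr12:55492598-55492897, minus strand): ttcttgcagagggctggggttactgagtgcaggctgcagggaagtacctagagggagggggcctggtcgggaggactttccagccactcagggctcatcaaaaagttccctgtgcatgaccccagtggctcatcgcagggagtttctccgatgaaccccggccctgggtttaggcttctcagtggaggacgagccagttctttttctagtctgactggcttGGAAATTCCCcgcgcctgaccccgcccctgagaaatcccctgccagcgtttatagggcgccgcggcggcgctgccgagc
The match began 12 bases before the start in Tnfaip3 and 29 bases before it in Nfkbia. Adjusted p-values of these changes were at most 0.000575, for Otud7b. Counts of these lists moved by over 1.5 times in a fit without 1 library: NF-kB inhibitors and ubiquitin editors had 1 fallen without WT PBS library 1.

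Cytokine signalling and its feedback also differed by member. Of the JAK and STAT genes 6 of 11 rose and 0 fell (median log2 fold change 0.32, 5 and 4 with library size alone). Stat2, a part of the interferon-activated factor ISGF3, rose from 28.8 and 33.1 to 301 and 229 CPM (3.10 ± 0.17), and Jak2 from 50.6 and 49.5 to 319 and 304 CPM (2.64 ± 0.08). Stat6, which acts downstream of IL-4, had 259.5 and 267 CPM with PBS and 262 and 261 CPM after stimulation (-0.01 ± 0.06, adjusted p = 0.941). Of the IRF family 3 of 11 rose and 2 fell (median log2 fold change 0.10, 3 and 5 with library size alone), with Irf7 going from 22.9 and 27.6 to 959 and 949 CPM (5.24 ± 0.11), Irf1 from 47.9 and 49.5 to 166 and 261 CPM (2.13 ± 0.26) and Irf9 from 39 and 42.2 to 88.1 and 90 CPM (1.13 ± 0.16). Irf3 and Irf8 had 28.4 and 26.2 CPM with PBS and 29.6 and 32.3 CPM after stimulation (0.18 ± 0.09, adjusted p = 0.147) and 111 and 123 CPM with PBS and 156 and 94.5 CPM after stimulation (0.10 ± 0.21, adjusted p = 0.756). Of the SOCS and related genes 5 of 19 rose and 5 fell (median log2 fold change 0.03, 5 and 8 with library size alone). Socs3, an inhibitor of STAT3 signalling, went from 3.96 and 3.19 to 465 and 455 CPM (7.01 ± 0.16) and Usp18, an inhibitor of the interferon receptor, from 5.43 and 7.96 to 318 and 344 CPM (5.63 ± 0.28). Of the MAP kinase phosphatases and RAS inhibitors 8 of 21 rose and 8 fell (median log2 fold change 0.29), with Dusp2 going from 1.89 and 2.98 to 38.2 and 35.9 CPM (3.93 ± 0.30) and Dusp5 from 33.3 and 46.3 to 5.47 and 5.28 CPM (-2.89 ± 0.29). Of the regulators of inflammatory mRNA stability 5 of 17 rose and 5 fell (median log2 fold change -0.16, 5 and 6 with library size alone). Zfp36, which encodes the decay factor tristetraprolin, rose from 214 and 266 to 1464 and 1357 CPM (2.56 ± 0.15), and the RNase gene Zc3h12a from 57 and 56.9 to 134 and 130.1 CPM (1.21 ± 0.09). The paralogs Zfp36l1 and Zfp36l2 fell from 146 and 185 to 50.6 and 50.1 CPM (-1.72 ± 0.14) and from 375 and 391 to 149.9 and 153 CPM (-1.34 ± 0.07). Among the changes named, the highest adjusted p was 0.00127, for Irf9. Leaving out 1 library moved these counts by over 1.5 times: IRF family had 5 fallen without stimulated WT library 2 and 1 fallen without WT PBS library 1 or WT PBS library 2. JAK and STAT genes had 1 fallen without stimulated WT library 1 or WT PBS library 2.

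Transcription factors of macrophage identity fell more often than they rose. Of that list 9 of 33 rose and 15 fell (median log2 fold change -0.54). Pparg, a lipid-activated nuclear receptor, went from 40.1 and 41.9 to 1.96 and 2.22 CPM (-4.29 ± 0.15), Epas1 (HIF-2α) from 24 and 22 to 1.69 and 0.998 CPM (-4.10 ± 0.25), Cebpa from 277 and 244 to 46.7 and 50 CPM (-2.43 ± 0.14) and Id3 from 193 and 202 to 44.3 and 40.7 CPM (-2.22 ± 0.11). Nr1h3, which encodes the oxysterol receptor LXRα, rose from 43.8 and 42.3 to 223 and 232 CPM (2.40 ± 0.07) and Spic, a factor of iron-handling macrophages, from 5.89 and 5.85 to 18.7 and 36.8 CPM (2.24 ± 0.40). Zeb2 had 328 and 375 CPM with PBS and 409 and 356 CPM after stimulation (0.12 ± 0.10, adjusted p = 0.362). Among immediate early and related factors 15 of 32 rose and 8 fell (median log2 fold change 0.44). Egr1 went from 5.74 and 9.84 to 1211 and 1038 CPM (7.17 ± 0.38), Batf from 5.03 and 5.17 to 40.5 and 44.9 CPM (3.06 ± 0.10) and Ier2 from 30.3 and 29.4 to 195 and 184 CPM (2.67 ± 0.11). Nr4a2 went from 18 and 11.2 to 1.45 and 1.5 CPM (-3.30 ± 0.26), Fosb from 43.2 and 63.6 to 6.64 and 5.23 CPM (-3.17 ± 0.29) and Klf4 from 34.6 and 45.2 to 6.75 and 5.58 CPM (-2.70 ± 0.19). Junb and Atf3 had 462 and 641 CPM with PBS and 704 and 684 CPM after stimulation (0.33 ± 0.19, adjusted p = 0.211) and 342 and 394 CPM with PBS and 359 and 333 CPM after stimulation (-0.09 ± 0.09, adjusted p = 0.451). Of the circadian clock genes 2 of 16 rose and 10 fell (median log2 fold change -0.75). Per2 rose from 3.85 and 3.25 to 17 and 15.6 CPM (2.20 ± 0.21). Nfil3, Dbp and Nr1d2 fell from 96 and 113 to 26.4 and 27.7 CPM (-1.95 ± 0.11), from 24.8 and 28.8 to 9.28 and 9.84 CPM (-1.49 ± 0.16) and from 73.4 and 72.8 to 29.8 and 24.8 CPM (-1.42 ± 0.10). Of the chromatin modifiers 10 of 35 rose and 7 fell (median log2 fold change 0.12, 7 and 9 with library size alone), with the histone deacetylase Hdac9 going from 1.69 and 1.02 to 19 and 16.6 CPM (3.71 ± 0.29) and Hdac5 from 127 and 122 to 49.7 and 48.1 CPM (-1.35 ± 0.07). No named change had an adjusted p above 0.00431, for Spic. These counts moved by over 1.5 times when a library was left out: Circadian clock genes had 1 risen without WT PBS library 1. Chromatin modifiers linked to inflammation had 4 fallen without WT PBS library 1.

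Nearly all tested members of both lists of interferon-stimulated genes rose. These genes are switched on by ISGF3 at the interferon-stimulated response element (ISRE) and encode proteins that limit viruses and intracellular bacteria. Of the guanylate-binding and immunity-related GTPases, which attack vacuoles that hold pathogens, 21 of 21 rose and 0 fell (median log2 fold change 5.56). Gbp10 went from 0.138 and 0.15 to 26.4 and 25.3 CPM (7.46 ± 0.18), Gbp6 from 1.34 and 2.42 to 212 and 273 CPM (7.01 ± 0.36), Tgtp2 from 0.737 and 1.43 to 137 and 143 CPM (7.01 ± 0.33) and Tgtp1 from 0.307 and 0.677 to 45.5 and 50.4 CPM (6.60 ± 0.29), members of clusters of similar genes whose counts may be partly shared. Of the antiviral effectors 45 of 49 rose and 2 fell (median log2 fold change 2.41), against a background of 20.6% higher and 20% lower. The schlafens Slfn4 and Slfn1 rose from 0.721 and 1.08 to 291 and 279 CPM (8.30 ± 0.40) and from 1.27 and 1.38 to 236 and 268 CPM (7.57 ± 0.12), the ubiquitin-like modifier Isg15 from 7.46 and 8.48 to 606 and 708 CPM (6.36 ± 0.15) and the exonuclease Isg20 from 2.64 and 2.78 to 138 and 178 CPM (5.87 ± 0.15). Apobec1 fell from 588 and 601 to 302 and 316 CPM (-0.94 ± 0.21), and Trim25 had 158 and 329.8 CPM with PBS and 355 and 307 CPM after stimulation (0.44 ± 0.30, adjusted p = 0.281). The ISRE-like motif (GAAA, any 2 bases, GAAA), searched on both strands, stood in 41.5% of the 53 promoter windows of this list, in 3.44% of all windows, in 3.31% of those of tested genes, in 5.58% of those of risen genes and in 2.51% of those of fallen genes. Shown is the window of Isg15, the member with the largest rise among those with a match and at least 10 CPM. It holds 3 matches that overlap in 1 run, in capitals. It was chosen after its values were seen.
Isg15 (chr4:156200769-156201068, minus strand): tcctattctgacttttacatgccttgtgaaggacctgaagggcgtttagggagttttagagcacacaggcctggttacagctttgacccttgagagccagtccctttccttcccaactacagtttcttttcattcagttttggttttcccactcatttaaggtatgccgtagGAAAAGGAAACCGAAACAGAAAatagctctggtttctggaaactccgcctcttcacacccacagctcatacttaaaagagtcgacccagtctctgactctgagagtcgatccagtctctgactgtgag
The 3 matches began 78, 72 and 66 bases before the start. At the upper end, the adjusted p was 0.0112, for Apobec1. Calls lost in fits without 1 library were these: Apobec1 without stimulated WT library 1 (largest adjusted p 0.0582).

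Antigen presentation rose for class I and split for class II. MHC class I shows peptides cut by the proteasome to CD8 T cells. Of its presentation genes 18 of 18 rose and 0 fell (median log2 fold change 1.98). The nonclassical chains H2-Q6 and H2-Q7, so similar that reads may be shared between them, rose from 3.68 and 3.5 to 541 and 581 CPM (7.29 ± 0.08) and from 6.6 and 6.54 to 615 and 651 CPM (6.59 ± 0.09), H2-T10 and H2-T24 from 4.16 and 4.06 to 55 and 60.9 CPM (3.82 ± 0.12) and from 11.2 and 12.9 to 167 and 145 CPM (3.70 ± 0.12), and B2m from 2700.3 and 2929 to 6987 and 7926 CPM (1.41 ± 0.08). Of the immunoproteasome subunits 5 of 5 rose and 0 fell (median log2 fold change 2.65). Psmb8 went from 52.2 and 57.9 to 372 and 424 CPM (2.85 ± 0.12), Psmb9 from 20.3 and 23.5 to 85.4 and 87.3 CPM (1.98 ± 0.22), Psmb10 from 35 and 38.4 to 231 and 230.0 CPM (2.65 ± 0.08) and the activator subunits Psme1 and Psme2 from 55 and 55 to 229.8 and 252 CPM (2.13 ± 0.08) and from 42.2 and 42.5 to 348 and 371 CPM (3.09 ± 0.07). The constitutive proteasome moved too, in smaller steps: 29 of 31 rose and 0 fell (median log2 fold change 0.86), with Psmb5 going from 67.2 and 60 to 209 and 235 CPM (1.80 ± 0.09) and Psma6 from 86.1 and 91.6 to 263 and 309 CPM (1.69 ± 0.09). Of the class II genes 6 of 17 rose and 6 fell (median log2 fold change 0.28, 5 and 6 with library size alone). March1, a ligase that removes class II from the surface, rose from 45.3 and 55.6 to 263 and 241 CPM (2.32 ± 0.16). The class II transactivator Ciita fell from 15.7 and 15.6 to 1.8 and 3.73 CPM (-2.50 ± 0.43) and the invariant chain Cd74 from 1007 and 1128 to 543 and 651 CPM (-0.84 ± 0.11). The largest adjusted p among the changed genes was 0.00341, for Ciita.

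**Figure D3:**
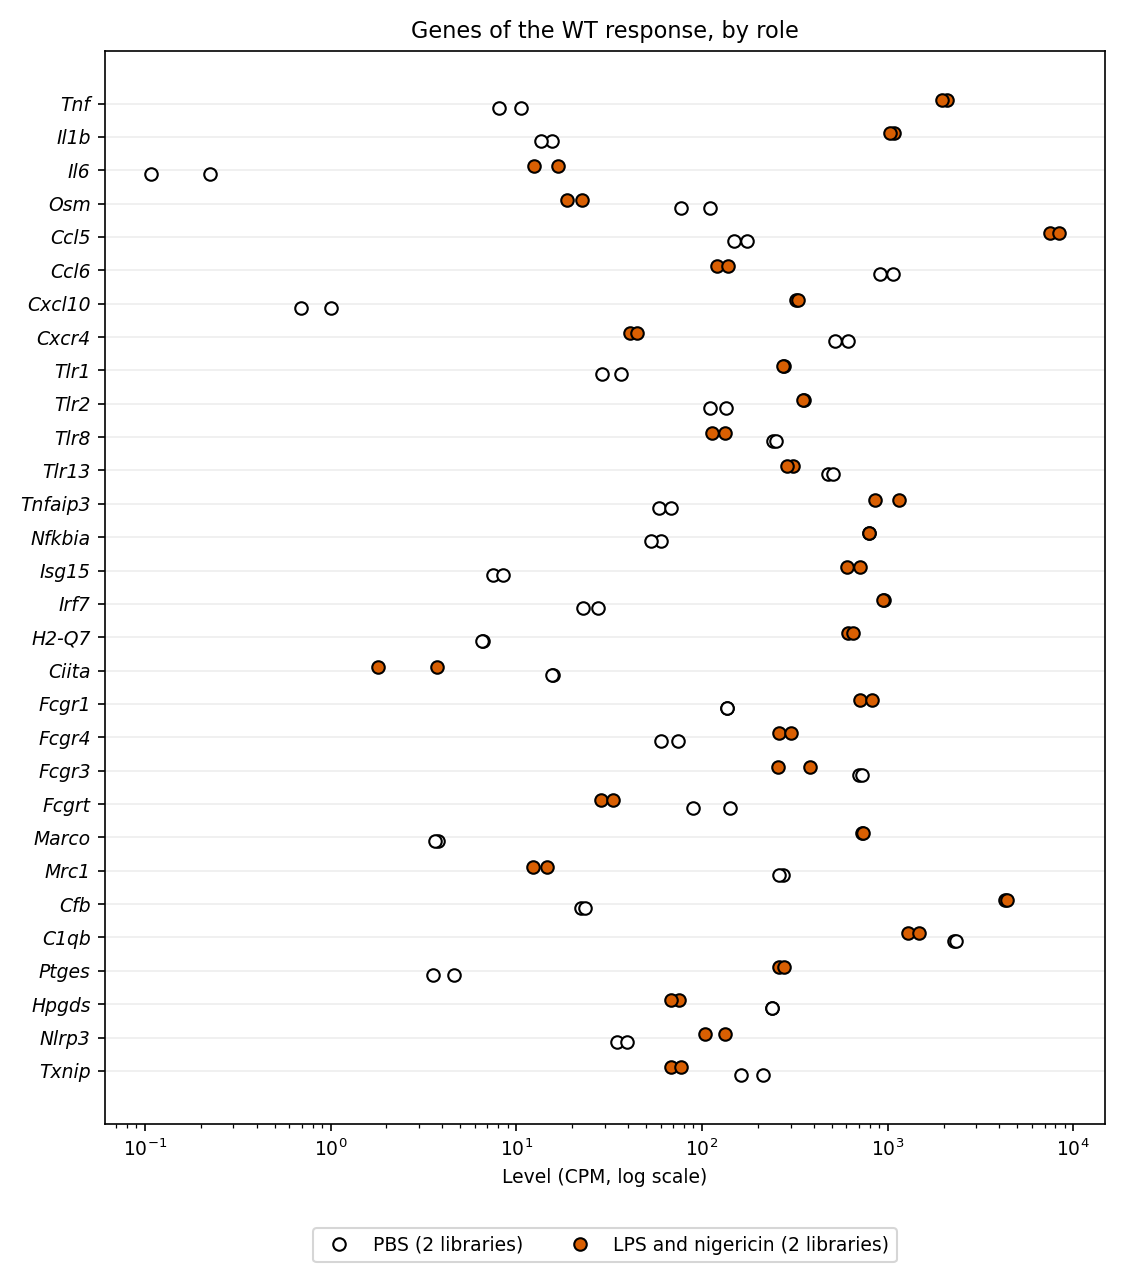
Level in each of the 4 WT libraries (x axis, CPM, log scale) of 30 genes described in the text, ordered by role. Open circles are the 2 PBS libraries and filled circles the 2 stimulated libraries. For each gene shown the points of the treatments do not overlap, which held for 7081 of the 7082 called genes, from which these were chosen. Risen and fallen genes occur within the same role, as for Tlr1 and Tlr8 or Fcgr1 and Fcgrt.

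Surface receptors moved in both directions within families. Of the costimulatory and inhibitory molecules 21 of 37 rose and 9 fell (median log2 fold change 1.11). The activation marker Cd69 went from 0.153 and 0.15 to 40.4 and 43.5 CPM (8.09 ± 0.14), Cd300e from 1.1 and 0.842 to 105 and 103 CPM (6.74 ± 0.14) and the paired receptors Pilra and Pilrb1 from 5.08 and 5.57 to 292 and 309 CPM (5.82 ± 0.08) and from 2.01 and 1.73 to 64.6 and 67.8 CPM (5.15 ± 0.11). Cd300a, an inhibitory member of the CD300 family, fell from 357 and 376 to 33.5 and 31.9 CPM (-3.48 ± 0.08) and Cd300lb from 454 and 431 to 75.8 and 81.9 CPM (-2.49 ± 0.08). Of the Fc receptors, which bind antibody, 5 of 9 rose and 4 fell (median log2 fold change 0.98). The activating Fcgr1 and Fcgr4 rose from 136 and 136 to 714 and 819 CPM (2.50 ± 0.08) and from 59.9 and 74.3 to 260.1 and 303 CPM (2.07 ± 0.12), their signalling chain Fcer1g from 592 and 629 to 1715 and 1977 CPM (1.60 ± 0.08), and the inhibitory Fcgr2b from 219 and 286 to 634 and 679.9 CPM (1.38 ± 0.15). Fcgr3 fell from 699 and 725 to 256 and 383 CPM (-1.16 ± 0.21), and Fcgrt, which recycles IgG, from 89.5 and 142 to 28.7 and 33.2 CPM (-1.90 ± 0.21). Of the scavenger and phagocytic receptors 8 of 31 rose and 16 fell (median log2 fold change -0.43). Marco went from 3.79 and 3.65 to 732 and 739.5 CPM (7.63 ± 0.08) and Msr1 from 188 and 182 to 929.8 and 948 CPM (2.34 ± 0.06), both receptors for modified lipoproteins and bacteria. The mannose receptor Mrc1 went from 272 and 262 to 14.6 and 12.4 CPM (-4.31 ± 0.11), Gas6, a bridge to dead cells, from 517 and 529.6 to 48 and 50 CPM (-3.42 ± 0.08), the lipid sensor Trem2 from 1045 and 1100.3 to 182 and 204 CPM (-2.48 ± 0.08) and the integrin chain Itgb5 from 524 and 539.9 to 124 and 134 CPM (-2.05 ± 0.07). Of the C-type lectins and Siglecs 10 of 22 rose and 7 fell (median log2 fold change 0.17). Clec4e (Mincle), a sensor of mycobacterial glycolipid, rose from 8.36 and 11.9 to 1189 and 1245 CPM (6.90 ± 0.20) and Siglece from 0.414 and 1.02 to 228 and 249 CPM (8.37 ± 0.34). Clec7a (Dectin-1), a sensor of fungal β-glucan, fell from 513 and 593 to 35 and 41.9 CPM (-3.85 ± 0.13). Adjusted p-values of these changes were at most 0.00443, for Fcgr3. With 1 library left out, counts moved by over 1.5 times for these lists: C-type lectin receptors and Siglecs had 4 fallen without WT PBS library 2.

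Adhesion and the cytoskeleton changed in both directions. Of the integrins and adhesion molecules 12 of 29 rose and 8 fell (median log2 fold change 0.08, 9 and 9 with library size alone). Icam1 rose from 61.1 and 59.8 to 665 and 679 CPM (3.47 ± 0.06), Itgal, the α chain of LFA-1, from 271 and 259 to 1066 and 935 CPM (1.92 ± 0.08) and Itga5, of the fibronectin receptor, from 175 and 147 to 499.9 and 501 CPM (1.64 ± 0.14). Itga6 and Alcam fell from 90 and 76.4 to 30.7 and 26.1 CPM (-1.55 ± 0.12) and from 233 and 234 to 111 and 108 CPM (-1.09 ± 0.06). Of the actin and membrane cytoskeleton genes 16 of 39 rose and 10 fell (median log2 fold change 0.29, 13 and 13 with library size alone). Marcksl1 went from 29.9 and 19.5 to 519 and 518 CPM (4.39 ± 0.22), the actin elongation factor Vasp from 124 and 114 to 666 and 763 CPM (2.58 ± 0.10) and the CDC42 effector Cdc42ep2 from 2.24 and 1.8 to 41.5 and 44.5 CPM (4.41 ± 0.14). Rhob fell from 414 and 379 to 66.4 and 69.5 CPM (-2.54 ± 0.09), the nuclear lamin Lmna from 189 and 172 to 60.2 and 63.9 CPM (-1.54 ± 0.10) and Myo5a, a vesicle motor, from 452 and 615 to 218 and 169 CPM (-1.46 ± 0.17). Of the Notch, Wnt, semaphorin and guidance genes 8 of 35 rose and 15 fell (median log2 fold change -0.34), with Sema4a and Rbpj, the nuclear mediator of Notch, rising from 25.2 and 32.3 to 157 and 159.6 CPM (2.47 ± 0.12) and from 82.5 and 77.7 to 276 and 264 CPM (1.75 ± 0.07), and Plxnc1 and Nrp1 falling from 267 and 263 to 31.9 and 28.2 CPM (-3.14 ± 0.09) and from 211 and 224 to 71.6 and 57.9 CPM (-1.75 ± 0.13). Of the TGF-β, BMP and IGF genes 6 of 29 rose and 14 fell (median log2 fold change -0.49, 3 and 16 with library size alone). Tgfbi, a matrix protein named for its induction by TGF-β, rose from 245 and 223 to 4424 and 4749.8 CPM (4.29 ± 0.09) and Inhba, of activin A, from 7.38 and 4.6 to 29.2 and 25 CPM (2.18 ± 0.28). Igfbp4 fell from 277 and 299.7 to 27.3 and 28.1 CPM (-3.38 ± 0.34), Igf1r from 30.2 and 26.2 to 6.06 and 6.38 CPM (-2.18 ± 0.11) and the inhibitory Smad7 from 13.7 and 10.6 to 2.44 and 3.11 CPM (-2.13 ± 0.29). Among the changes named, the highest adjusted p was 0.00116, for Smad7. Counts of these lists moved by over 1.5 times in a fit without 1 library: Integrins and adhesion molecules had 5 fallen without stimulated WT library 2.

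Acute-phase and complement genes rose more often than they fell. Of the acute-phase proteins and alarmins 12 of 22 rose and 4 fell (median log2 fold change 2.67). Saa3 went from 82.9 and 91.8 to 30998 and 33202 CPM (8.52 ± 0.09), haptoglobin, Hp, from 9.35 and 10.7 to 799 and 844 CPM (6.35 ± 0.16) and the copper oxidase ceruloplasmin, Cp, from 5.45 and 4.59 to 193 and 177 CPM (5.20 ± 0.12), proteins better known from liver. S100a8 rose from 2.58 and 3.01 to 26.3 and 32.1 CPM (3.39 ± 0.16). The related S100a4 and S100a6 fell from 242 and 252 to 41.3 and 49.1 CPM (-2.45 ± 0.11) and from 126 and 133 to 22 and 34.6 CPM (-2.19 ± 0.28). Of the complement genes 8 of 20 rose and 4 fell (median log2 fold change 0.20). Cfb, factor B of the alternative pathway, went from 22.3 and 23.4 to 4261 and 4382 CPM (7.56 ± 0.07), C3 from 103 and 100.2 to 1914 and 1722 CPM (4.16 ± 0.07) and C1ra from 6.41 and 6.69 to 49 and 54.3 CPM (2.98 ± 0.13). The C1q chains C1qb and C1qc fell from 2279.6 and 2335 to 1293 and 1471 CPM (-0.74 ± 0.07) and from 1795 and 1842 to 1017 and 1140.0 CPM (-0.75 ± 0.07). Of the metalloproteinases, plasminogen activators and inhibitors 10 of 30 rose and 13 fell (median log2 fold change -0.44). Mmp14 and the inhibitor Timp1 rose from 62.5 and 58.3 to 777 and 729 CPM (3.64 ± 0.09) and from 7.58 and 8.59 to 62.8 and 75.3 CPM (3.09 ± 0.12). Mmp27, Mmp8 and the inhibitor Timp2 fell from 31.2 and 33.4 to 1.73 and 2.6 CPM (-3.90 ± 0.25), from 25.9 and 28.9 to 2.87 and 2.24 CPM (-3.42 ± 0.16) and from 952 and 982 to 191 and 205 CPM (-2.29 ± 0.06). Of the serpins and cystatins 9 of 18 rose and 4 fell (median log2 fold change 0.75), with Cst7 (cystatin F) going from 0.338 and 0.346 to 99.4 and 120.0 CPM (8.32 ± 0.21), Slpi from 4.05 and 4.32 to 177 and 203 CPM (5.51 ± 0.12) and Serpinb6a from 582 and 587 to 94.1 and 108 CPM (-2.53 ± 0.09). No named change had an adjusted p above 0.000906, for S100a6. Leaving out 1 library moved these counts by over 1.5 times: Serine and cysteine protease inhibitors had 2 fallen without WT PBS library 2.

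Eicosanoid genes changed in both directions, and more of the nitric oxide, arginine and polyamine genes rose than fell. Of the eicosanoid genes 10 of 25 rose and 7 fell (median log2 fold change 0.22, 9 and 10 with library size alone). Ptgs2, which encodes COX-2, rose from 19.7 and 27 to 372 and 261 CPM (3.76 ± 0.32), Ptges, which makes prostaglandin E2 from its product, from 3.58 and 4.6 to 259 and 276 CPM (6.03 ± 0.14), and Pla2g4a, which frees arachidonic acid, from 10.7 and 10.7 to 57 and 55.1 CPM (2.39 ± 0.10). Beside Hpgd, named above, the prostaglandin D synthase Hpgds fell from 238 and 239 to 75 and 68.2 CPM (-1.74 ± 0.07) and the epoxide hydrolase Ephx1 from 65.7 and 69.3 to 10.5 and 9.15 CPM (-2.78 ± 0.11). Tbxas1, of thromboxane, had 142 and 152 CPM with PBS and 127 and 129 CPM after stimulation (-0.20 ± 0.07, adjusted p = 0.0661). Of the nitric oxide, arginine and polyamine genes 8 of 23 rose and 2 fell (median log2 fold change 0.03, 8 and 4 with library size alone). With Nos2 rose the arginine importers Slc7a2 (33.8 and 33.5 to 823 and 1295 CPM, 4.98 ± 0.29) and Slc7a1 (14.4 and 8.33 to 72.8 and 60.5 CPM, 2.55 ± 0.33) and Ass1, which recycles citrulline (2.85 and 3.25 to 304 and 319 CPM, 6.67 ± 0.10). Sat1, which breaks down polyamines, fell from 424 and 443 to 165 and 158 CPM (-1.42 ± 0.15). Of the purine receptors and ectonucleotidases 8 of 21 rose and 5 fell (median log2 fold change 0.44). The adenosine receptor Adora2a rose from 0.813 and 0.812 to 56.7 and 54.7 CPM (6.09 ± 0.09). Entpd1 (CD39), which removes extracellular ATP, fell from 332 and 345 to 15.7 and 16.8 CPM (-4.38 ± 0.11) and the ATP-gated channel P2rx7 from 78.9 and 115 to 53.8 and 50.9 CPM (-0.89 ± 0.17). Of the G-protein regulators and phosphodiesterases 10 of 29 rose and 13 fell (median log2 fold change -0.50), with the fatty acid receptor Gpr84 going from 1.89 and 1.04 to 171 and 186 CPM (6.93 ± 0.38) and Rgs2 from 268 and 341 to 33.2 and 35.3 CPM (-3.15 ± 0.16). At the upper end, the adjusted p was 0.0059, for P2rx7. These counts moved by over 1.5 times when a library was left out: Nitric oxide, arginine and polyamine genes had 4 fallen without stimulated WT library 2.

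Genes of the inflammasome, which nigericin activates at the protein level, changed in both directions. The list holds Il1b and Il18, given above. Of that list 9 of 20 rose and 5 fell (median log2 fold change 0.42). The sensor Nlrp3 went from 34.9 and 39.3 to 132 and 105 CPM (1.68 ± 0.13), the adaptor Pycard from 25.2 and 29.2 to 58 and 63.6 CPM (1.16 ± 0.13), the proteases Casp1 and Casp4 from 63.2 and 73.6 to 164 and 180.5 CPM (1.33 ± 0.10) and from 21.1 and 19.5 to 63.7 and 67.3 CPM (1.69 ± 0.08), the pore-former Gsdmd from 67.4 and 69 to 182 and 197 CPM (1.47 ± 0.07) and the deubiquitinase Brcc3 from 9.22 and 10.2 to 16.7 and 18.5 CPM (0.86 ± 0.11). Nek7, the kinase that NLRP3 needs, fell from 38.1 and 33.9 to 25.4 and 21.4 CPM (-0.62 ± 0.13), as did Txnip from 213 and 163 to 68.4 and 76.8 CPM (-1.37 ± 0.19), Casp6 from 27.2 and 28.7 to 16.4 and 15.2 CPM (-0.82 ± 0.09), Casp9 from 62.8 and 56.5 to 44.1 and 41.9 CPM (-0.47 ± 0.13) and Gsdme from 6.45 and 6.72 to 4.07 and 4.99 CPM (-0.54 ± 0.17). Ninj1, which ruptures the plasma membrane, had 146 and 222 CPM with PBS and 147 and 241 CPM after stimulation (0.08 ± 0.30, adjusted p = 0.862) and Casp8 82.2 and 95 CPM with PBS and 89.1 and 101 CPM after stimulation (0.11 ± 0.10, adjusted p = 0.441). Of the necroptosis and death-receptor genes 6 of 15 rose and 1 fell (median log2 fold change 0.27, 6 and 2 with library size alone). The pore-former Mlkl rose from 11.9 and 12.3 to 96.1 and 101 CPM (3.03 ± 0.12), and Cflar, which restrains caspase-8, from 87.4 and 81 to 578 and 549 CPM (2.74 ± 0.08). Of the BCL2 family 6 of 18 rose and 4 fell (median log2 fold change 0.28, 4 and 4 with library size alone). The pro-survival genes Bcl2a1a and Bcl2a1d, near-identical copies, rose from 7.49 and 8.06 to 87.1 and 99.7 CPM (3.59 ± 0.11) and from 11.6 and 13.9 to 90.2 and 98.2 CPM (2.88 ± 0.11). The pro-death BH3 genes Bcl2l11 (BIM) and Bmf fell from 89.4 and 96.3 to 31.5 and 24.6 CPM (-1.73 ± 0.19) and from 33.9 and 32.4 to 10.7 and 9.69 CPM (-1.70 ± 0.11). Of the potassium channels and sodium-potassium pump 5 of 18 rose and 4 fell (median log2 fold change 0.12, 5 and 6 with library size alone). Kcnn4 and Kcnj2 rose from 45.1 and 44.3 to 102 and 108 CPM (1.23 ± 0.08) and from 20.5 and 24.6 to 51.6 and 41.2 CPM (1.04 ± 0.17), the volume-regulated channel subunit Lrrc8c from 17.4 and 16.4 to 72.7 and 74.7 CPM (2.12 ± 0.12) and the pump's β chain Atp1b3 from 408 and 403 to 625 and 685 CPM (0.69 ± 0.06). Kcnk13 and Kcnk6 fell from 61.7 and 54.2 to 41.7 and 47.5 CPM (-0.38 ± 0.12) and from 64.7 and 67.5 to 45.2 and 43.4 CPM (-0.58 ± 0.09). The largest adjusted p among the changed genes was 0.0396, for Kcnk13. When 1 library was left out, these calls were lost: Nek7 without WT PBS library 1 (largest adjusted p 0.0537), Casp9 without WT PBS library 1, stimulated WT library 1 or stimulated WT library 2 (largest adjusted p 0.127), Gsdme without WT PBS library 1, WT PBS library 2, stimulated WT library 1, KO PBS library 1 or KO PBS library 2 (largest adjusted p 0.146) and Kcnk13 without WT PBS library 1, stimulated WT library 1, stimulated KO library 1 or stimulated KO library 2 (largest adjusted p 0.19). With 1 library left out, counts moved by over 1.5 times for these lists: Inflammasome, caspases and gasdermins had 3 fallen without stimulated WT library 1 and 2 fallen without WT PBS library 1. BCL2 family had 3 risen without stimulated WT library 2 or WT PBS library 2. Potassium channels and sodium-potassium pump had 2 fallen without stimulated KO library 1 or stimulated KO library 2 or WT PBS library 1.

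Genes of glycolysis and of the TCA cycle rose more often than they fell, and those of fatty acid oxidation fell more often. Of the glycolysis and glucose uptake genes 15 of 31 rose and 7 fell (median log2 fold change 0.46). The transporter Slc2a6 went from 12.8 and 14.2 to 210.1 and 219 CPM (3.99 ± 0.08), Pfkfb3, which activates phosphofructokinase, from 47.9 and 79.2 to 269 and 202 CPM (1.89 ± 0.26), Pfkl from 43.7 and 44.9 to 128 and 139 CPM (1.59 ± 0.08) and Gapdh from 32.8 and 50.7 to 178 and 133 CPM (1.90 ± 0.25), a gene with many pseudogenes that can share its counts. Aldoc and Pdk2 fell from 16.7 and 16.1 to 5.18 and 7.5 CPM (-1.37 ± 0.18) and from 26.2 and 28.1 to 11.9 and 12.5 CPM (-1.15 ± 0.09). Of the TCA cycle genes 15 of 27 rose and 2 fell (median log2 fold change 0.29, 12 and 5 with library size alone). Beside Acod1, Mdh2 and Sdhb rose from 118 and 111 to 271 and 309 CPM (1.34 ± 0.08) and from 102 and 109 to 209 and 239 CPM (1.08 ± 0.08), and the cytosolic Idh1 fell from 461 and 479 to 142 and 149.9 CPM (-1.69 ± 0.07). Of the pentose phosphate genes 5 of 9 rose and 1 fell (median log2 fold change 0.48), with G6pdx, the entry enzyme, going from 366 and 386 to 629 and 663 CPM (0.78 ± 0.07) and Taldo1 from 594 and 602 to 403 and 446 CPM (-0.49 ± 0.07). Of the fatty acid oxidation genes 6 of 30 rose and 11 fell (median log2 fold change -0.20, 4 and 15 with library size alone), with Cpt1a, which admits fatty acids to mitochondria, going from 235 and 249 to 138 and 136 CPM (-0.82 ± 0.07) and Acox3 from 255 and 261 to 127 and 123 CPM (-1.04 ± 0.06), and Eci2 and Acaa1a going from 21.4 and 21 to 42.6 and 48.4 CPM (1.10 ± 0.09) and from 74.2 and 87.5 to 164 and 179.7 CPM (1.09 ± 0.10). Of the NAD genes 9 of 18 rose and 2 fell (median log2 fold change 0.67, 7 and 5 with library size alone). The NAD-consuming ectoenzymes Cd38 and Bst1 rose from 2.58 and 2.86 to 445 and 455 CPM (7.37 ± 0.10) and from 8.36 and 10.5 to 164 and 182 CPM (4.20 ± 0.13), and the NAD kinase Nadk from 228 and 234 to 602 and 626 CPM (1.41 ± 0.08). Adjusted p-values of these changes were at most 0.00123, for Pfkfb3. Counts of these lists moved by over 1.5 times in a fit without 1 library: Glycolysis, glucose uptake and lactate export had 3 fallen without stimulated WT library 1 and 2 fallen without WT PBS library 2. TCA cycle and itaconate had 1 fallen without WT PBS library 2. Fatty acid oxidation had 7 fallen without WT PBS library 2. Tryptophan, kynurenine and NAD genes had 1 fallen without stimulated WT library 2 and 0 fallen without WT PBS library 2.

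Lipid genes fell more often than they rose. Of the lipid efflux and droplet genes 10 of 36 rose and 19 fell (median log2 fold change -0.34). Acsl1, which activates long-chain fatty acids, went from 61.1 and 66 to 1851 and 1631 CPM (4.78 ± 0.11) and Acsl5 from 117 and 124 to 457 and 479 CPM (1.96 ± 0.06). The droplet coat Plin2 went from 1295 and 1437 to 252 and 262 CPM (-2.41 ± 0.10), the fatty acid carrier Fabp4 from 246 and 266 to 54.4 and 52.7 CPM (-2.26 ± 0.09), the cholesteryl ester hydrolase Nceh1 from 688 and 662 to 178 and 173 CPM (-1.94 ± 0.06) and the transporter Abca9 from 60.7 and 59.9 to 8.57 and 6.06 CPM (-3.04 ± 0.17). Abca1, the cholesterol exporter, had 709.8 and 570.5 CPM with PBS and 664 and 511 CPM after stimulation (-0.12 ± 0.16, adjusted p = 0.585). Of the sterol synthesis genes 4 of 25 rose and 10 fell (median log2 fold change -0.18, 1 and 14 with library size alone), with the SREBP escort Scap going from 78.2 and 76.3 to 34.3 and 37.1 CPM (-1.11 ± 0.08). Of the sphingolipid and phospholipid genes 4 of 30 rose and 13 fell (median log2 fold change -0.20). Smpdl3b, a lipid-anchored phosphodiesterase, went from 1.32 and 2.02 to 145 and 153 CPM (6.48 ± 0.20). Lpin1 went from 74.3 and 77.2 to 8.66 and 7.09 CPM (-3.27 ± 0.13), Galc from 317 and 330.0 to 94.5 and 84.7 CPM (-1.85 ± 0.08) and Sgms1 from 64.2 and 67.5 to 25.5 and 24.5 CPM (-1.40 ± 0.09). Of the iron and metal genes 11 of 30 rose and 11 fell (median log2 fold change -0.11, 10 and 11 with library size alone). Slc40a1 (ferroportin), the iron exporter, fell from 191 and 229.8 to 5.73 and 5.54 CPM (-5.22 ± 0.24) and the transferrin receptor Tfrc from 166 and 188 to 44.3 and 45.9 CPM (-1.97 ± 0.14). The copper transporters Slc31a1 and Slc31a2 rose from 138 and 134 to 472 and 499 CPM (1.84 ± 0.07) and from 87.9 and 79 to 449 and 461 CPM (2.45 ± 0.09). Among the changes named, the highest adjusted p was 6.12e-05, for Tfrc. Leaving out 1 library moved these counts by over 1.5 times: Sterol synthesis and uptake had 1 risen without WT PBS library 1 and 2 risen without WT PBS library 2.

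Most genes of amino acid supply, tRNA charging and protein folding rose. Of the amino acid and one-carbon genes 14 of 25 rose and 6 fell (median log2 fold change 0.68). Phgdh, the first step of serine synthesis, went from 1.2 and 0.707 to 27.3 and 28.9 CPM (4.88 ± 0.27), the mitochondrial folate enzyme Mthfd2 from 6.57 and 5.41 to 163 and 167 CPM (4.78 ± 0.31) and asparagine synthetase, Asns, from 5.48 and 3.9 to 80.2 and 87 CPM (4.16 ± 0.20). Glutamine synthetase, Glul, fell from 502 and 547 to 118 and 117 CPM (-2.16 ± 0.07). Of the cytosolic aminoacyl-tRNA synthetases 18 of 20 rose and 1 fell (median log2 fold change 0.86), with Aars going from 85.8 and 77 to 319.7 and 321 CPM (1.98 ± 0.07) and Yars from 17.8 and 17.7 to 54.5 and 57 CPM (1.65 ± 0.08). Among factors of the ATF4 and CHOP response 14 of 22 rose and 3 fell (median log2 fold change 1.00). Nupr1 went from 4.91 and 5.22 to 134 and 139 CPM (4.75 ± 0.28), the cystine importer Slc7a11 from 14.6 and 6.77 to 142 and 116 CPM (3.59 ± 0.43), Trib3 from 4.01 and 2.51 to 18.6 and 21.5 CPM (2.62 ± 0.28) and Slc7a5 from 4.73 and 3.43 to 24.2 and 23.7 CPM (2.56 ± 0.17). The sensor kinase Eif2ak3 (PERK) fell from 42.4 and 42.8 to 29.1 and 25.2 CPM (-0.65 ± 0.12). The composite motif TGATGCAAT, bound by C/EBP and ATF factors and searched on both strands, stood in 2 of the 12 windows of the synthetase list (16.7%), in 0.192% of all windows and in 0.135% of those of tested genes. It stood in 1 of the 25 windows of the amino acid and one-carbon list (4%). Among windows of risen genes it stood in 0.189%, and among those of fallen genes in 0.0599%. The window of Aars, chosen after its values were seen, is shown with the match, on the opposite strand, in capitals.
Aars (chr8:111033592-111033891, plus strand): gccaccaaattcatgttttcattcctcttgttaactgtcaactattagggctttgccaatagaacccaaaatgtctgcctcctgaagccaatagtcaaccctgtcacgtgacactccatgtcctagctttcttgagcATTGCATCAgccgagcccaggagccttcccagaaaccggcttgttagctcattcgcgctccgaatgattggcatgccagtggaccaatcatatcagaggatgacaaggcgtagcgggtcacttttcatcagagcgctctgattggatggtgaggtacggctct
The match began 113 bases before the start. Of the ER chaperones 19 of 27 rose and 4 fell (median log2 fold change 0.53), with Hspa5 (BiP) going from 335 and 346 to 721 and 786 CPM (1.15 ± 0.06) and Hyou1 from 55.1 and 53.3 to 130.3 and 112 CPM (1.16 ± 0.09). Of the heat shock genes 14 of 21 rose and 1 fell (median log2 fold change 0.65, 12 and 3 with library size alone), with Hspa1a and Hspa1b, near-identical copies, going from 2.87 and 1.91 to 17.7 and 13.6 CPM (2.71 ± 0.24) and from 3.59 and 3.47 to 18.8 and 22.3 CPM (2.54 ± 0.17). Of the NRF2 and glutathione genes 15 of 32 rose and 6 fell (median log2 fold change 0.55). Sod2, the mitochondrial superoxide dismutase, went from 59.2 and 59.7 to 1400.4 and 1547 CPM (4.63 ± 0.19) and the peroxiredoxins Prdx5 and Prdx1 from 211 and 286 to 1899 and 2725 CPM (3.22 ± 0.23) and from 1198 and 1236 to 3689.6 and 4138 CPM (1.68 ± 0.07). Gpx3 went from 55.7 and 66.3 to 8.2 and 8.4 CPM (-2.88 ± 0.13) and Cat, catalase, from 642 and 673 to 434 and 460.0 CPM (-0.56 ± 0.07). The regulator Nfe2l2 had 353 and 352 CPM with PBS and 350.3 and 341 CPM after stimulation (-0.03 ± 0.06, adjusted p = 0.727). No named change had an adjusted p above 0.00514, for Eif2ak3. These counts moved by over 1.5 times when a library was left out: Cytosolic aminoacyl-tRNA synthetases had 0 fallen without stimulated WT library 1 or WT PBS library 1 or WT PBS library 2. ATF4 and CHOP stress factors had 1 fallen without WT PBS library 1. ER chaperones and unfolded protein response had 2 fallen without stimulated WT library 2 or WT PBS library 1. Cytosolic heat shock genes had 2 fallen without stimulated WT library 1.

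More of the lysosomal and autophagy genes fell than rose. Of the lysosomal genes 8 of 42 rose and 23 fell (median log2 fold change -0.27). Ctsd, Ctsb and Psap, all of the lysosome, fell from 21052 and 21974 to 11505 and 12198 CPM (-0.86 ± 0.06), from 21459 and 22212 to 10325 and 11023 CPM (-1.03 ± 0.05) and from 19341 and 20524 to 9432 and 9839.9 CPM (-1.05 ± 0.06), and Sgsh, Ctsk and the lipase Lipa from 158 and 155 to 44.9 and 49.4 CPM (-1.73 ± 0.08), from 52.1 and 54.8 to 16.1 and 17.6 CPM (-1.67 ± 0.09) and from 1904 and 2099 to 651 and 658 CPM (-1.61 ± 0.08). Ctsc, which activates serine proteases, and Ctsz rose from 189 and 197 to 1035 and 1111 CPM (2.47 ± 0.07) and from 1291 and 1361 to 3329 and 3613 CPM (1.39 ± 0.07). Of the proton pump subunits 3 of 18 rose and 6 fell (median log2 fold change -0.02, 2 and 9 with library size alone), with Atp6v0d2 going from 989 and 1039 to 40.3 and 44.3 CPM (-4.58 ± 0.09), Atp6v0a1 from 173 and 178 to 44 and 39.8 CPM (-2.07 ± 0.09) and Atp6v0a2 from 40.7 and 38.4 to 86 and 83.7 CPM (1.10 ± 0.16), so isoforms of the same subunit moved apart. Atp6v0d2 and Ctsk are also on the osteoclast list above, whose part was not tested. Of the autophagy genes 6 of 35 rose and 18 fell (median log2 fold change -0.39). The cargo receptors Optn and Calcoco1 fell from 35.9 and 30.1 to 11.9 and 12.5 CPM (-1.43 ± 0.17) and from 97.7 and 93.9 to 43 and 42.7 CPM (-1.16 ± 0.07), the ATG8 homolog Gabarapl1 from 275 and 279 to 131 and 117 CPM (-1.16 ± 0.07) and the initiating kinase Ulk1 from 99.5 and 93.1 to 45.2 and 43 CPM (-1.13 ± 0.11). The cargo receptor Sqstm1 (p62) rose from 778 and 711 to 1776 and 1834 CPM (1.28 ± 0.08). The CLEAR core TCACGTGA, the palindrome bound by TFEB, stood in 9.76% of the 41 windows of lysosomal genes, in 0.974% of all windows, in 1.7% of those of tested genes and in 2.07% of those of fallen genes. It was not particular to the lysosomal list. It stood in 16.7% of the 12 windows of the synthetase list, most of whose genes rose. The Aars and Tnfaip3 windows shown above hold it too. Of the mitochondrially encoded mRNAs 0 of 13 rose and 2 fell (median log2 fold change 0.05, 0 and 4 with library size alone). With only the 4 WT libraries 2 rose and 2 fell. At the upper end, the adjusted p was 0.00156, for Atp6v0a2. With 1 library left out, counts moved by over 1.5 times for these lists: Mitochondrially encoded mRNAs had 1 risen without stimulated KO library 1 or stimulated KO library 2. Mitochondrially encoded mRNAs had 1 fallen without stimulated WT library 1 or stimulated WT library 2 or WT PBS library 1 or WT PBS library 2.

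Most genes of G2 and mitosis fell, and few of DNA replication were called. Of the G2 and mitosis genes 3 of 32 rose and 22 fell (median log2 fold change -1.31). Cenpa went from 43.3 and 34.7 to 0.727 and 0.619 CPM (-5.85 ± 0.22), the phosphatase Cdc25b from 17.3 and 18.2 to 6.18 and 6.69 CPM (-1.46 ± 0.12) and the topoisomerase Top2a from 16.5 and 15.6 to 9.68 and 7.81 CPM (-0.88 ± 0.15). Mki67, by contrast, went from 27.3 and 19.5 to 61.6 and 40.9 CPM (1.13 ± 0.24) and Mad2l1 from 9.44 and 9.42 to 17.7 and 19.4 CPM (0.98 ± 0.11). The count depended on the filter, and with at least 5 CPM in 2 libraries 13 fell. Of the DNA replication genes 3 of 32 rose and 4 fell (median log2 fold change -0.05, 3 and 10 with library size alone), with Pcna at 209 and 188 CPM with PBS and 159 and 177 CPM after stimulation (-0.24 ± 0.11, adjusted p = 0.117). Of the cyclins D, CDK inhibitors and p53 targets 9 of 24 rose and 9 fell (median log2 fold change 0.15, 5 and 9 with library size alone), with Gadd45b going from 31.5 and 40.2 to 113 and 104 CPM (1.59 ± 0.16), Mdm2 from 117 and 106 to 183 and 175 CPM (0.68 ± 0.10) and Sesn1 from 130.3 and 163 to 31.2 and 36.8 CPM (-2.11 ± 0.18). The CHR motif TTTGAA, searched on both strands, stood in 75.9% of the 29 windows of the G2 and mitosis list, in 17.9% of all windows and in 12.6% of those of tested genes. CCAAT stood in 82.8% of the windows of the list and in 37.4% both of all windows and of those of tested genes. Neither motif was more common among fallen than among risen genes. CHR stood in 12% of the windows of fallen and 13.5% of those of risen genes, and CCAAT in 36.4% and 38.5%. The window of Cenpa, which had the largest fall in the list, is shown with its CHR match in capitals. It was chosen after its values were seen.
Cenpa (chr5:30666636-30666935, plus strand): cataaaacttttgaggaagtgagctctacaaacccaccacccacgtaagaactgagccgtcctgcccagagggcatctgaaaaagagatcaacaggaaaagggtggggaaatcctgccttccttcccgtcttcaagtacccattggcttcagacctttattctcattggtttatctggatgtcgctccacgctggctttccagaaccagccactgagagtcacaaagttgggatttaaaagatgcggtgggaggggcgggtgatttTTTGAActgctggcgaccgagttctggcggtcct
The match began at base 17 counted from the start. The largest adjusted p among the changed genes was 0.00857, for Mki67. Counts of these lists moved by over 1.5 times in a fit without 1 library: DNA replication and S phase genes had 1 fallen without stimulated WT library 1 and 2 fallen without WT PBS library 1 or WT PBS library 2. DNA replication and S phase genes had 1 risen without stimulated WT library 2.

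**Figure D4:**
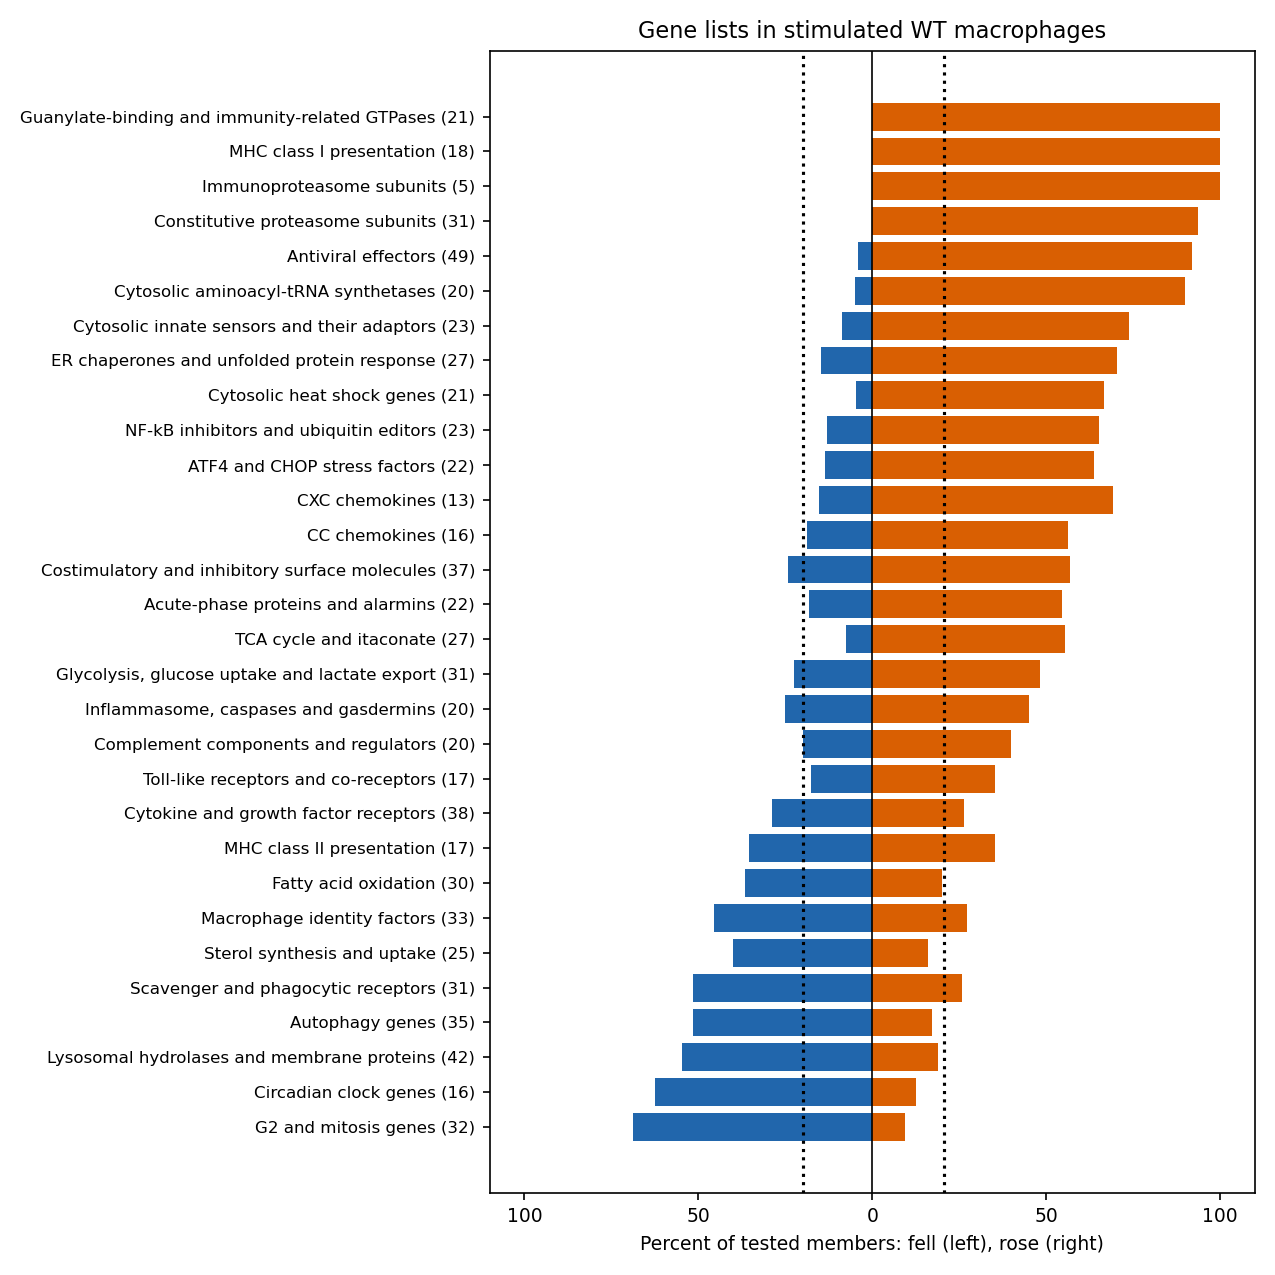
Percent of the tested members of 30 gene lists that rose (orange, to the right) and fell (blue, to the left) in stimulated WT macrophages, with the number tested beside each name. Dotted lines mark the background over all tested genes, 20.6% higher and 20% lower. All tested members of the GTPase, class I and immunoproteasome lists lie to the right, and mitosis, clock and lysosomal lists lean left.

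Noncoding transcripts changed in both directions. Among long intergenic RNAs 77 of 479 rose and 88 fell, and among antisense transcripts, which cannot be separated from their partners where strand is not kept, 63 of 602 rose and 55 fell. In both classes a smaller share was called than among all tested genes, 34.45% and 19.6% against 40.5%. The nuclear transcripts Malat1 and Neat1 had 673 and 529.5 CPM with PBS and 594 and 226 CPM after stimulation (-0.55 ± 0.39, adjusted p = 0.304) and 227 and 181 CPM with PBS and 216 and 169.7 CPM after stimulation (-0.08 ± 0.20, adjusted p = 0.778). Firre, a nuclear RNA of the X chromosome, fell from 28.2 and 22.7 to 11.5 and 9.03 CPM (-1.31 ± 0.17). The miRNA host gene Mir22hg fell from 67.8 and 65.3 to 39.9 and 36.9 CPM (-0.79 ± 0.09) and Zfas1 rose from 28.7 and 32.3 to 42.7 and 51.5 CPM (0.63 ± 0.12). Over all 84 lists, 49 had more risen than fallen members, 25 more fallen than risen and 10 as many of both. The lists share members and were chosen with earlier results of these data known, so this tally describes the choice of lists. Over all tested genes 3592 rose and 3490 fell.

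The WT response was then set against the KO response, which tests where it depends on the genotype. The responses differed for 87 of 17470 genes (0.498%) in the test of the difference, with WT minus KO above 0 for 69 and below 0 for 18. Cre is present in KO cells alone, so what follows from it and what follows from loss of Mettl3 cannot be told apart. Of the genes that rose in WT 42 (1.17%) and of those that fell 28 (0.802%) were among the 87. As log2 fold changes, Marco rose by 7.63 ± 0.08 in WT and 5.54 ± 0.07 in KO, Ass1 by 6.67 ± 0.10 in WT and 4.53 ± 0.09 in KO and the desaturase Scd2 changed by 2.23 ± 0.08 in WT and 0.42 ± 0.08 in KO. The peroxiredoxin Prdx1 changed by 1.68 ± 0.07 in WT and 0.12 ± 0.07 in KO and H2-Q6 by 7.29 ± 0.08 in WT and 5.74 ± 0.08 in KO. The zinc finger gene Zfp180 changed by 2.55 ± 0.17 in WT and -2.40 ± 0.17 in KO, and mt-Rnr1, the small ribosomal RNA of mitochondria, by -0.56 ± 0.08 in WT and 1.46 ± 0.08 in KO. The predicted gene Gm12435 changed by -3.87 ± 0.38 in WT and 4.02 ± 0.38 in KO. These 8 genes had the smallest adjusted p of the difference among genes with at least 10 CPM in a group. In 5 of the 8 both responses had the same sign, and in Zfp180, mt-Rnr1 and Gm12435 the signs were opposite. Counts of Prdx1 can be shared with pseudogenes. All 8 differences passed in each of the 8 fits that left out 1 library. Over all genes the counts were less stable, and without stimulated KO library 1 there were 15 above 0 and 5 below 0. The largest adjusted p of a difference among them was 0.00435, for Gm12435.

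**Figure D5:**
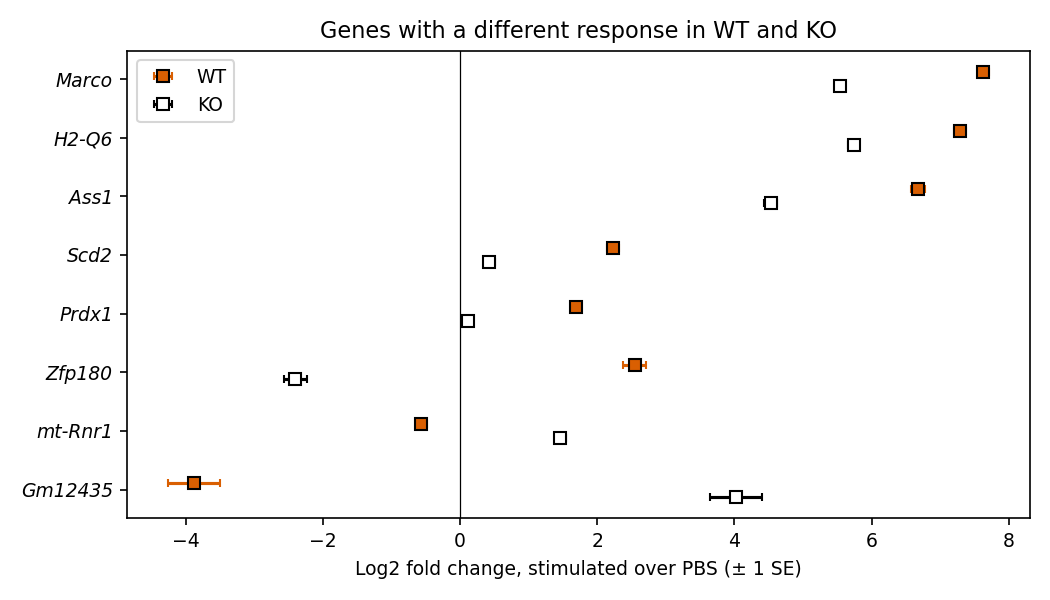
Response of the 8 genes in WT (filled squares) and KO (open squares) macrophages as log2 fold change of stimulated over PBS (x axis), with bars of 1 SE and 2 libraries per group. Marco, Ass1 and Scd2 rise further in WT, while mt-Rnr1 and Gm12435 lie lower in WT than in KO.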

How the data were processed

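RNA-seq of 8 macrophage libraries was used, 4 of them for the response of WT cells. The authors deposited raw read counts per gene; Trimmomatic, Bowtie2, edgeR and the build mm10 are named in the submitters' processing notes, without versions. The counting tool, annotation and strand setting were not given in the sources used here. IDs were matched to GENCODE M21 (GRCm38) for 55141 of 55401 genes. Counts were filtered with filterByExpr (minimum 10, total 15), scaled by TMM and fitted in edgeR 4.0.16 (R 4.3.3) by quasi-likelihood over all 8 libraries, with a mean for each group, leaving 4 residual degrees of freedom. Library totals were 58917273 to 65487739 counts in WT and 55032057 to 65341905 in KO, which limits precision at low counts. Where both libraries of a group had 0 counts, a fold is a lower bound against 3 counts over the group. SE is the size of the log2 fold change from a fit without a prior count, over the square root of the F statistic. The printed log2 fold change carries edgeR's default prior count, so near 0 counts these estimates can differ. The fit was tested on simulated data. Alternatives were DESeq2 1.42.0, limma-voom (3.58.1), DESeq2 size factors, library size alone, no filter, 5 CPM in 2 libraries, the WT libraries alone, a fold of 2, a replicate block and each library left out. Members and gene lists were chosen with earlier results of these data known. Named are the 12 largest rises and falls, up to 4 called members per direction and 2 uncalled members of a list, all members of small lists and of the inflammasome, marker and sex-linked lists, the 10 most abundant genes per kilobase in each group and the 8 clearest differences, each with at least 10 CPM where called; Mettl3 is named outside the rule, and some genes that the rule names are not reported here. Promoter windows came from RefSeq (GRCm38.p6).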

Additional observations from a re-analysis of the deposited data

Results flagged for a closer look

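These genes of the report are listed because their response differed between WT and KO in the test of the difference over all genes (edgeR's quasi-likelihood test, adjusted p under 0.05). Values are WT minus KO on the log2 scale ± SE with 2 libraries per group, and the cause was not tested. Among genes that rose in WT, the difference was 2.18 ± 0.23 for Fpr1 and 1.88 ± 0.26 for Fpr2, the formyl peptide receptors, 2.09 ± 0.09 for Marco, 2.14 ± 0.12 for Ass1 and 1.80 ± 0.12 for Scd2. It was 1.57 ± 0.10 for Prdx1, 1.48 ± 0.11 for Tgfbi, 1.04 ± 0.12 for Sqstm1, 1.12 ± 0.12 for Cd38, 1.27 ± 0.14 for Slpi and 0.56 ± 0.08 for Tnfrsf1b. For the class I chains it was 1.55 ± 0.09 for H2-Q6 and 1.34 ± 0.10 for H2-Q7. For secreted proteins it was 0.98 ± 0.09 for Saa3, 0.95 ± 0.13 for Ccl5, 0.87 ± 0.09 for C3 and 0.84 ± 0.07 for Cfb. Each of these genes therefore had the higher log2 fold change in WT. Among genes that fell in WT, the difference was 0.74 ± 0.09 for Psap and 0.94 ± 0.11 for Lipa, both lysosomal, 1.10 ± 0.10 for Cat, 0.68 ± 0.07 for C3ar1 and 0.90 ± 0.11 for Cd300lb, so the fall was smaller in WT than in KO. Cd14, not called in WT, had -1.13 ± 0.13. Zfp180 had 4.95 ± 0.24, mt-Rnr1 -2.03 ± 0.12 and Gm12435 -7.89 ± 0.54, each with responses of opposite sign. The largest adjusted p of a difference among these genes was 0.044, for Fpr2. In fits that left out 1 library, these differences no longer passed: Fpr1 and Saa3 without stimulated WT library 2, KO PBS library 2, stimulated KO library 1 or stimulated KO library 2 (largest adjusted p 0.0961), Fpr2 and Ccl5 without WT PBS library 1, stimulated WT library 1, stimulated WT library 2, KO PBS library 1, KO PBS library 2, stimulated KO library 1 or stimulated KO library 2 (largest adjusted p 0.172), Sqstm1 and Cd14 without WT PBS library 1, WT PBS library 2, stimulated WT library 1, stimulated WT library 2, stimulated KO library 1 or stimulated KO library 2 (largest adjusted p 0.106), Cd38 without WT PBS library 1, stimulated WT library 2, KO PBS library 2, stimulated KO library 1 or stimulated KO library 2 (largest adjusted p 0.0964), Slpi and Psap without WT PBS library 1, WT PBS library 2, stimulated WT library 2, KO PBS library 2, stimulated KO library 1 or stimulated KO library 2 (largest adjusted p 0.136), Tnfrsf1b without any 1 of the 8 libraries (largest adjusted p 0.179), C3 without WT PBS library 1, WT PBS library 2, KO PBS library 1, KO PBS library 2, stimulated KO library 1 or stimulated KO library 2 (largest adjusted p 0.0997), Cfb and Cat without stimulated KO library 1 or stimulated KO library 2 (largest adjusted p 0.0795), Lipa without WT PBS library 1, stimulated WT library 1, stimulated WT library 2, KO PBS library 2, stimulated KO library 1 or stimulated KO library 2 (largest adjusted p 0.119) and C3ar1 and Cd300lb without WT PBS library 1, WT PBS library 2, stimulated WT library 2, KO PBS library 1, KO PBS library 2, stimulated KO library 1 or stimulated KO library 2 (largest adjusted p 0.143).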

How the results depend on the processing

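The counts of the WT response stayed within 1.5 times under 16 of 17 other settings, with 2713 to 3717 genes higher and 2557 to 4720 lower. Against a fold of 2, 1027 were higher and 891 lower, since small changes then no longer pass. With library size alone 36.5% of the called genes were higher, and the median of all genes was -0.20. Leaving out 1 library gave 2793 to 3517 higher and 2557 to 3312 lower. A group left with 1 library was then assumed to vary like the other groups. The difference of responses was less stable: against a fold of 2 it held for 3 and 3 genes (WT minus KO above and below 0), with DESeq2 for 294 and 192, and with 1 library left out for 15 to 63 and 5 to 31, without a tested cause. Without WT PBS library 1 it held for 25 and 10, without stimulated WT library 2 for 29 and 12, without KO PBS library 1 for 42 and 17, without KO PBS library 2 for 25 and 11, without stimulated KO library 1 for 15 and 5 and without stimulated KO library 2 for 18 and 7. Without stimulated WT library 1 it held for 63 and 31. The share of counts in the most abundant 10 genes was 14 to 17.4% and in the top 50 it was 25.7 to 28.2%. With a block for the replicate number 3489 were higher and 3377 lower, and 48 and 12 differed between genotypes. Differences of library 1 from library 2 correlated across genes by -0.015 to 0.101 between groups, with the largest value between WT PBS and KO PBS. Little pairing by number was thus seen over all genes. Such a correlation cannot show whether the numbers pair the samples for part of the genes. In simulated counts with known changes, 100 of 17470 genes were changed 2-fold and 100 4-fold. For the WT comparison 34% of 2-fold and 68% of 4-fold changes were recovered, and 9 unchanged genes were called. For the difference of responses it was 13% and 58%, with 7 unchanged genes called. In the data 40.5% of genes were called for the WT response. With so few changed genes the adjustment for multiple testing is stricter, so these shares do not carry over to the WT response. Changes of either size can still be missed.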

Other observations

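Families named by the start of their symbol, chosen after the values were seen, differed in how evenly they moved. Over all tested genes 20.6% rose and 20% fell. With library size alone 2713 of 17470 rose and 4720 fell. A count near these shares says little about a family. Of the mitochondrial ribosomal proteins (Mrpl and Mrps) 51 of 78 rose and 1 fell, or 39 and 3 with library size alone. Of the nuclear-encoded subunits of complex I (Nduf, without the assembly factors Ndufaf) 26 of 38 rose and 0 fell, or 21 and 1. Of the chaperonin subunits (Cct) 5 of 7 rose and 0 fell, with the same counts for library size alone. Cytosolic ribosomal proteins (Rpl and Rps) depended on the scaling, with 15 of 80 risen and 1 fallen, or 7 and 17 with library size alone. Of the kinesins (Kif) 2 of 32 rose and 15 fell, or 1 and 18, and of the Cyp genes, cytochromes P450, 2 of 24 rose and 9 fell, or 1 and 9. More even, and nearer to the shares of all genes, were the solute carriers (Slc), with 57 of 234 risen and 74 fallen, or 48 and 89. Of the Tmem genes 31 of 179 rose and 49 fell, or 22 and 68, of the Rab genes 14 of 61 and 19, or 11 and 27, of the Abc genes 9 of 34 and 14, or 7 and 14, of the Usp genes 7 of 44 and 13, or 4 and 17, and of the Zfp genes 35 of 348 and 62, or 23 and 101. Of the Trim genes 17 of 48 rose and 9 fell, or 16 and 14, of the Eif genes 22 of 54 and 10, or 17 and 16, of the Polr genes 12 of 28 and 4, or 7 and 6, and of the Nop, Nol and Utp genes 10 of 27 and 2, or 7 and 2.

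The libraries of a group were far apart for some genes. Of genes with at least 20 CPM in a library of the group, 122 of 6738 (1.81%) differed by over 2-fold between the PBS libraries and 126 of 6879 (1.83%) between the stimulated ones. Itgam, which encodes CD11b, stood at 134 and 367 CPM with PBS and 565 and 664 after stimulation. Tlr7 stood at 63.5 and 284 and 238 and 225, and Trim25 at 158 and 329.8 and 355 and 307, so for all 3 genes the first PBS library was the lowest of the 4. The cause was not tested.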
